A study of Mus musculus with 12 samples.

Results

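CpG-dense regions at 5 tumour suppressor genes whose promoters are known to be hypermethylated in myeloid leukemia, Cdkn2a, Cdkn2b, Cdh1, Socs1 and Id4, were at a low methylation level in every group of mutant mice examined here. A promoter start was located within them for all but Cdh1 and the p16Ink4a start of Cdkn2a. For Cdkn2b most of the sequence before the start lay beyond the dense region, where few CpGs were measured. The members are the CpGs with at least 10 reads in at least 2 libraries of each group, both strands summed, in 4 windows of the mouse build mm9. The windows were chr4:88910000-88970000 for the neighbouring genes Cdkn2a and Cdkn2b, chr8:109115000-109145000 for Cdh1, chr16:10775000-10795000 for Socs1 and chr13:48345000-48370000 for Id4. They held 602 of the 1157487 autosomal CpGs that met this rule, with 176 assigned to Cdkn2a, 50 to Cdkn2b, 86 to Cdh1, 151 to Socs1 and 139 to Id4. Of these CpGs, 589 lay in 26 of the 105502 tiles of 1000 bp that were tested, and 13 lay in no tested tile. The rule uses the coverage of a CpG and not its methylation. A tile was called dense with at least 10 CpGs and low with a mean over the 12 libraries under 20%. There were 11 dense low-methylation tiles with 522 CpGs in the windows, out of 18672 such tiles in all. Every tile of the windows with at least 10 CpGs was low, so the second condition removed none. Summed per gene, no library labelled leukemic was above 4.16%, and the leukemic libraries overlapped those of each other group in all 5 genes, so these levels went against the word hypermethylated. None of the 11 was called in either direction in any of the 6 comparisons. Of all dense low tiles, 0% to 0.0428% per comparison were called higher in the later group, in the order Nras G12D, Tet2 knockout, nonleukemic and leukemic. Calls in the other direction are not counted in this share.

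The cells were LSK cells, bone marrow cells sorted as negative for lineage markers and positive for Sca1 and cKit, a fraction that contains the stem cells and multipotent progenitors of the blood. They came from C57BL/6 mice of 6 months, with mutations that were conditional and limited to blood-forming tissue, and their methylation was read by reduced representation bisulfite sequencing. The sources used here do not name the Cre driver. Of the 4 groups of 3 libraries, the first carried Nras(G12D), an activating change in a signalling GTPase. The second was Tet2(-/-), without the enzyme that oxidises methylcytosine. The other 2 groups carried Tet2(-/-) and Nras(G12D) together, in animals without leukemia (nonleukemic) and with it (labelled leukemic). The leukemic group was read from the prefix L of its titles and the series design. Its libraries also bear the tag TN-BMT, which the labels do not explain. The double mutants share the Nras change with the first group and the Tet2 loss with the second, and wild-type libraries were not analysed here. The labels do not say that the libraries of a group came from separate animals, so a p-value here sets a difference against the spread between libraries, which may be technical. The sorting markers cannot be checked with methylation, and a percent averages over all cells of the sorted fraction.

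Promoters rich in CpGs are normally unmethylated in healthy cells, and dense methylation there goes with stable silencing of the gene. Methylation of the Cdkn2b promoter is a classical finding in myelodysplastic syndrome and acute myeloid leukemia, and the other genes are reported as methylated in part of the cases. Cdkn2b (p15Ink4b) and Cdkn2a (p16Ink4a and Arf, from separate first exons) restrain the cell cycle or stabilise p53, Socs1 damps cytokine signalling through JAK and STAT, Id4 binds and blocks basic helix-loop-helix transcription factors, and Cdh1 encodes E-cadherin, an adhesion protein.

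The sum of reads over all listed cytosines ran from 96300485 to 199736369 per library, lowest in Tet2 knockout replicate 2 and highest in leukemic replicate 1. Mitochondrial CpGs, which are taken as unmethylated, read as methylated at 0.222% to 1.0% per library. Most values below for Cdkn2b, Socs1 and Id4 lay within or under this range. The highest readings were in Nras G12D replicate 3 (1.0%), leukemic replicate 2 (0.924%), nonleukemic replicate 1 (0.849%) and Tet2 knockout replicate 2 (0.816%). Each also stood high in Id4, Socs1 or Cdkn2b. Leukemic replicate 1, high in Socs1, read 0.428%, and Nras G12D replicate 1, high in Cdkn2b, 0.222%. A link was not tested. The summed dense low-methylation CpGs of the 5 genes read at 0.748% to 1.18%, and those of all 18672 dense low tiles at 1.03% to 1.49%. Reads on the Y chromosome were listed at 251 to 360 positions in Tet2 knockout replicates 1 and 2 and nonleukemic replicate 1, and at 2 to 18 positions in the other libraries.

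The promoter sequences show how many CpGs these readings rest on. The 250 bases before the start are taken from RefSeq (GRCm38.p6) and written 5′ to 3′ in the direction of the gene, with every CpG measured here in capitals. Each was laid on mm9 by the spacing of its CpGs alone, with no coordinate of the other build.
Cdkn2a: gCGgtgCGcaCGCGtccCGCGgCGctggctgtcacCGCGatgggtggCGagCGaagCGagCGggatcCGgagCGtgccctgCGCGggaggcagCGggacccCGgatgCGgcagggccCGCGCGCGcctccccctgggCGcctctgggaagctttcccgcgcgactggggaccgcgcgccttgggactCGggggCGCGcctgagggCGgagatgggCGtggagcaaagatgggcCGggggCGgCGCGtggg
Cdkn2b: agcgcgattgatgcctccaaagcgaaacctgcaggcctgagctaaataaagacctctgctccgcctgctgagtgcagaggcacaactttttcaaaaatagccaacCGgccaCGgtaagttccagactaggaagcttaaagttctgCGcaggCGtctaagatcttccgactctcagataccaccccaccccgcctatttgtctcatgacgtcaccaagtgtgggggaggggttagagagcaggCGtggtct
Socs1: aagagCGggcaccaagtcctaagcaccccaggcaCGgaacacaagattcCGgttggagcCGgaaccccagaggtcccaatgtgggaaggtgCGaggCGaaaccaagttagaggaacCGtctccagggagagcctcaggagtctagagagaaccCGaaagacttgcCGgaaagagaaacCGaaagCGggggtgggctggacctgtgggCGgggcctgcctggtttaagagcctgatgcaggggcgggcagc
Id4: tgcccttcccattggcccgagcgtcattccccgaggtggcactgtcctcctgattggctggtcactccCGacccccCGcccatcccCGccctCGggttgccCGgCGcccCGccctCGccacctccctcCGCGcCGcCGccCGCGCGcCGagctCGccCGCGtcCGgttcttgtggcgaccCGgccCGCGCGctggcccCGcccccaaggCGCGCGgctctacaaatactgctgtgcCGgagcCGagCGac
The Cdkn2a sequence lies at chr4:88940524-88940773 on the minus strand and belongs to the upstream of its listed starts, by background that of Arf. It held 40 CpGs, of which 34 were measured. The Cdkn2b sequence, at chr4:88956942-88957191 on the minus strand, held 12 CpGs, of which 5 were measured. For Socs1, at chr16:10785630-10785879 on the minus strand, 12 of 13 CpGs were measured. For Id4, at chr13:48356235-48356484 on the plus strand, 31 of 35 CpGs were measured. A promoter in the RefSeq table had a median of 6 CpGs in the same 250 bases. The capitals in Socs1, Id4 and Cdkn2a therefore cover nearly the whole of 3 CpG-rich promoters, while the Cdkn2b stretch is covered in small parts. The site that MspI cuts to make these libraries, CCGG (the same on both strands, searched in the 250 bases), occurred 3 times in the Cdkn2a sequence, 1 time in Cdkn2b, 3 times in Socs1 and 4 times in Id4, and 47.1% of the 32851 promoter sequences of the table held it. The other Cdkn2a sequence, by background the start of p16Ink4a, was not placed, and no position is given for the start of Cdh1.

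Of the capitals, no CpG reached a mean over the 12 libraries above 3.24% in Cdkn2a, 1.24% in Cdkn2b, 0.443% in Socs1 or 1.33% in Id4. Over the placed 300 bases, which add 50 bases after the start, the libraries read 0.0564% to 0.735% in Cdkn2a, 0% to 1.91% in Cdkn2b, 0% to 0.490% in Socs1 and 0.0262% to 2.13% in Id4. Summed over these bases the 4 promoters were thus at 2.13% or less in all 12 libraries, while single capitals could read higher in 1 library, such as the Cdkn2a CpG at 88940705 with 34.5% of 119 reads in leukemic replicate 3. The widest reading, in Id4, came from leukemic replicate 2, with the other libraries labelled leukemic at 0.0262% and 0.422%.

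Cdkn2b, the cell cycle inhibitor best known for methylation in myeloid leukemia, had 1 dense low tile, chr4:88956000-88956999, with 38 CpGs and 3635 to 7125 reads per library. The tile holds the placed start, at position 88956941. The share of methylated reads was 0.964%, 0.319% and 0.749% in Nras G12D, 0.311%, 1.57% and 0.143% in Tet2 knockout, 0.493%, 0.384% and 0.126% in the nonleukemic double mutant and 0.333%, 0.396% and 0.0281% in the libraries labelled leukemic. The lowest reading of all was thus a leukemic one, and the highest, in Tet2 knockout replicate 2, stood apart from the others. The group means, in the same order, were 0.677% ± 0.328, 0.674% ± 0.779, 0.334% ± 0.188 and 0.252% ± 0.197 (SD, n = 3 each). Without replicate 2, the Tet2 knockout mean was 0.227%. That library's high value rested largely on 1 CpG at position 88956879, 62 bases after the start, which read as methylated in 98.2% of its 55 reads while its neighbours at 88956860 and 88956892 read 0%. The same CpG was at 0% and 1.03% in the other Tet2 knockout libraries and at 0% in all libraries labelled leukemic except replicate 2, at 2.0%, and at 19.3% in Nras G12D replicate 3. The leukemic minus nonleukemic difference was -0.0821 points, with a 95% interval from -0.918 to 0.754, and the groups overlapped. Upstream of the start the reads were fewer. The 4 CpGs of chr4:88957000-88957999, with 79 to 234 reads per library, read 2.98%, 0% and 3.85% in nonleukemic libraries, 0% in all Nras G12D and Tet2 knockout libraries and 0%, 1.06% and 0% in leukemic ones. Over the placed 300 bases, which take in 11 CpGs on both sides of the start, the nonleukemic libraries were at 0.637%, 1.17% and 1.91%, the Tet2 knockout libraries at 0.376%, 0% and 0.259%, and the leukemic at 0.0860%, 0.761% and 0%. The nonleukemic libraries were the group with the highest mean there, and all of them were above all Tet2 knockout libraries. In the tile of 4 CpGs these 2 groups overlapped at 0%. Their difference there was 2.27 points, with a 95% interval from 0.290 to 4.26. This difference had a p of 0.0868 before adjustment and of 1 after it (quasi-binomial model, spread moderated with limma). The interval rests on a pooled SD that takes in the SD of 0 in Nras G12D and Tet2 knockout, so it may be too narrow. The p rests on read counts. Nonleukemic minus Nras G12D gave the same difference and interval there, with a p of 0.104 before adjustment in the same model.

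Cdkn2a, whose products are p16Ink4a and Arf, had 3 dense low tiles with 149 CpGs. Summed over them, methylated reads made up 1.12%, 1.31% and 1.45% in Nras G12D, 1.31%, 1.28% and 0.908% in Tet2 knockout, 0.929%, 1.24% and 1.39% in nonleukemic and 1.32%, 0.831% and 1.11% in leukemic libraries. The means were 1.29% ± 0.163, 1.17% ± 0.225, 1.19% ± 0.236 and 1.09% ± 0.246 in that order (SD, n = 3 each), so the leukemic mean was the lowest of overlapping groups. No interval of a difference between groups reached above 0.434 points. The tile with the placed Arf start, chr4:88940000-88940999, had 84 CpGs and a mean over the libraries of 1.07%, and no library was above 1.56%. Upstream of it, chr4:88941000-88941999 had 52 CpGs and group means, in the same order, of 0.792% ± 0.548, 0.848% ± 0.212, 0.549% ± 0.226 and 0.312% ± 0.00889. The libraries labelled leukemic, at 0.316%, 0.318% and 0.302%, lay below all Tet2 knockout libraries, at 0.990%, 0.949% and 0.604%. This difference of -0.535 points had the smallest p of any dense low tile of the 5 genes, 0.0344 before adjustment and 0.148 after it (quasi-binomial model, spread moderated with limma). It was -0.106 points, with a p of 0.644 before adjustment in the same model, without Tet2 knockout replicate 1, when a CpG also needed 10 reads in both of the libraries left. That rule also dropped the CpG at 88941238, with 100% of 28 reads in replicate 2 and no reads in replicate 3. The fall thus cannot be assigned to replicate 1 alone. With only CpGs covered in all 12 libraries the difference was smaller, and its p before adjustment was above 0.05. Whether the groups overlap without this CpG alone was not tested. The third tile, chr4:88920000-88920999, lay downstream with 13 CpGs and means of 4.80% ± 2.70, 5.02% ± 0.588, 5.31% ± 1.71 and 3.95% ± 0.729 in the same order of groups. Its highest CpG, at 88920743 and 19780 bases after the placed start, had a mean of 23.0% and group means from 12.3% in Tet2 knockout to 33.7% in nonleukemic libraries.

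Socs1, the inhibitor of cytokine signalling, had lower means than Cdkn2a, Id4 and Cdh1 in every group, while in the leukemic group Cdkn2b was lower still. Its 3 dense low tiles, chr16:10784000-10786999, held 143 CpGs. Methylated reads made up 0.222%, 0.275% and 0.234% in Nras G12D, 0.157%, 0.599% and 0.258% in Tet2 knockout, 0.594%, 0.207% and 0.194% in nonleukemic and 0.588%, 0.172% and 0.0701% in leukemic libraries. In each of the last 3 groups 1 library was at 0.588% to 0.599% and the others were at 0.258% or less, so the groups overlapped in every comparison. The means were 0.244% ± 0.0276, 0.338% ± 0.232, 0.332% ± 0.228 and 0.277% ± 0.274 (SD, n = 3 each), and no difference had an upper bound above 0.496 points. Without leukemic replicate 1 the leukemic mean was 0.124%. The tile with the placed start, chr16:10785000-10785999, had 74 CpGs and a mean over the libraries of 0.278%. The nonleukemic minus Tet2 knockout difference there was -0.0736 points, and 0.107 points without Tet2 knockout replicate 2. In the downstream tile, chr16:10784000-10784999 with 54 CpGs, the shares were 0.771%, 0.343% and 0.330% in nonleukemic against 0.270%, 0.135% and 0.3% in Tet2 knockout libraries. These ranges did not overlap, while the difference of 0.246 points had a 95% interval from -0.159 to 0.651 and an adjusted p of 1 in the quasi-binomial model. Without nonleukemic replicate 1 it was 0.0926 points. In the upstream tile, chr16:10786000-10786999 with 15 CpGs, Tet2 knockout replicate 2 was at 1.98% and every other library was at 0.478% or less.

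Id4, the inhibitor of helix-loop-helix factors, had 2 dense low tiles, chr13:48356000-48357999, with 128 CpGs. Methylated reads made up 0.441%, 0.477% and 1.48% in Nras G12D, 0.755%, 0.975% and 0.592% in Tet2 knockout, 0.805%, 1.20% and 0.958% in nonleukemic and 1.16%, 2.15% and 0.527% in leukemic libraries. The leukemic group held the highest value of all 12 libraries and also 1 of the lowest. Its mean, 1.28% ± 0.818, was above the nonleukemic 0.987% ± 0.197, the Nras G12D 0.799% ± 0.590 and the Tet2 knockout 0.774% ± 0.192 (SD, n = 3 each) by less than this spread. The largest of these differences, leukemic minus Tet2 knockout, was 0.507 points with a 95% interval from -0.477 to 1.49. Without leukemic replicate 2 the leukemic mean was 0.855%, and in the tile with the placed start, chr13:48356000-48356999 with 75 CpGs, leukemic minus Nras G12D turned from 0.448 to -0.0519 points. The tile downstream of it, chr13:48357000-48357999 with 53 CpGs, was at 1.32% ± 0.795, 1.42% ± 0.747, 1.71% ± 0.326 and 1.83% ± 0.984 from Nras G12D through Tet2 knockout and nonleukemic to leukemic libraries. In Nras G12D the mean of the gene was 0.459% without replicate 3.

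Cdh1, the gene of E-cadherin, had the highest mean of the 5 genes in each group, in 2 dense low tiles with 64 CpGs. Methylated reads made up 2.41%, 3.55% and 1.91% in Nras G12D, 1.90%, 2.92% and 2.64% in Tet2 knockout, 3.05%, 2.89% and 2.97% in nonleukemic and 1.97%, 4.16% and 2.36% in leukemic libraries. Again 1 leukemic library was the highest of all and another was among the lowest. The means were 2.62% ± 0.843, 2.49% ± 0.527, 2.97% ± 0.0779 and 2.83% ± 1.17 (SD, n = 3 each), with a leukemic minus nonleukemic difference of -0.143 points and a 95% interval from -1.59 to 1.30. The 2 tiles differed in level. The tile chr8:109127000-109127999, with 53 CpGs, was at 1.22% ± 0.377, 1.02% ± 0.278, 1.08% ± 0.242 and 1.25% ± 0.223 in the same order. The tile after it, chr8:109128000-109128999, with 11 CpGs, was at 11.8% ± 7.18, 11.7% ± 2.56, 12.6% ± 1.94 and 10.8% ± 5.26. At its far edge the CpGs at positions 109128557, 109128575 and 109128682 had means of 33.4%, 23.8% and 29.4% over the libraries, in every group over 10%. Leukemic minus nonleukemic was -1.83 points in this tile, and 0.963 points without leukemic replicate 1.

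**Figure D1:**
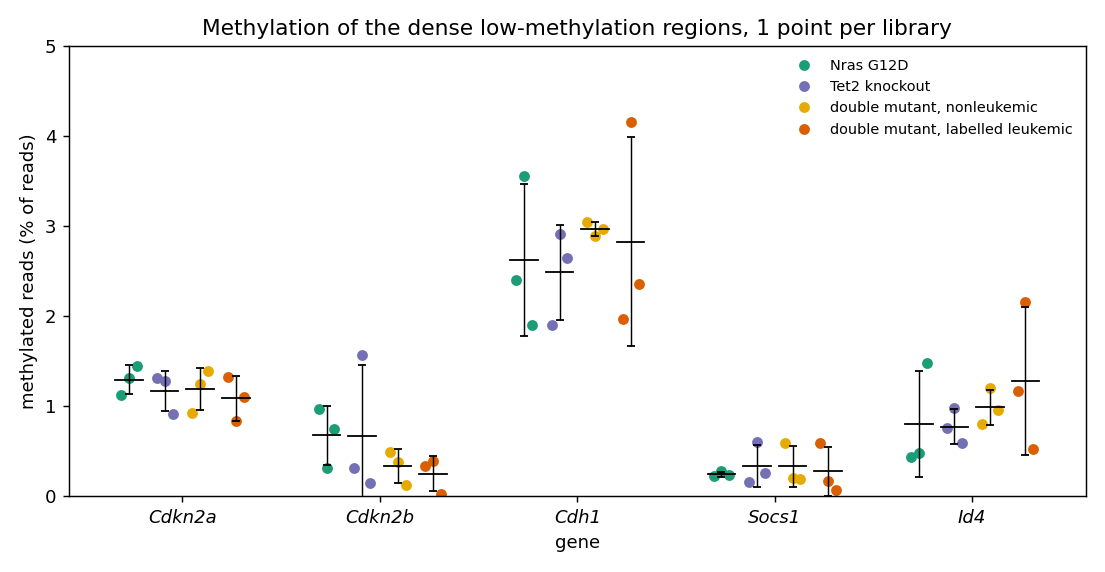
Share of methylated reads (vertical axis, percent) over the dense low-methylation tiles of each gene (horizontal axis), with 1 point per library, a bar at the mean of 3 libraries and error bars of 1 SD, cut at 0 where they would pass below it. No library lies above 4.16% in any gene, the 4 groups overlap in each gene, and Cdh1 has the highest mean in each group.

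Summed over the dense low tiles of each of the 5 genes, the groups overlapped in all 30 comparisons of a gene between a pair of groups. No 95% interval of these differences reached above 1.93 points. The intervals use the pooled SD of the 12 libraries with 8 residual degrees of freedom. Counting error was smaller than the spread between libraries in most cases: in the leukemic libraries the exact 95% binomial interval for Id4 ran from 1.01% to 1.33% in replicate 1, from 1.91% to 2.41% in replicate 2 and from 0.420% to 0.654% in replicate 3. These intervals cover counting error only, since PCR copies count as reads.

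Each tile was then tested for a difference between the groups, in a model fitted on all 105502 tiles. A call took an adjusted p below 0.05 together with 10 points or more between group means. Of the 11 dense low tiles, 0 were called higher in Tet2 knockout than in Nras G12D, beside 0% of all dense low tiles, and 0 in nonleukemic than in Tet2 knockout libraries (0%). In nonleukemic against Nras G12D, 0 were called higher, beside 0.0107% of all dense low tiles. In the libraries labelled leukemic, 0 were called higher than in nonleukemic (0.0268% of all), than in Tet2 knockout (0.0428%) and than in Nras G12D libraries (0.0268%). A called gain at a dense low tile was thus rare anywhere in the table, and its absence in 11 tiles does not set them apart. Before adjustment, only the upstream Cdkn2a tile in leukemic against Tet2 knockout had a p under 0.05, and it was lower. That was 1 of 11, beside 15.7% of all dense low tiles. In the other comparisons it was 0 of 11, beside 6.47% of all in Tet2 knockout minus Nras G12D, 4.29% in nonleukemic minus Tet2 knockout, 2.67% in nonleukemic minus Nras G12D, 11.4% in leukemic minus nonleukemic and 11.7% in leukemic minus Nras G12D. With limma on log ratios and in every other alternative tried, 0 of the dense low tiles were called higher.

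The size of the differences says more than the calls. In leukemic minus nonleukemic the 11 tiles ranged from -1.83 to 0.376 points with a median of -0.0215, beside a median of 0.0191 over all dense low tiles. In leukemic minus Tet2 knockout they ranged from -1.07 to 0.439 (median -0.0621, against 0 over all), and in leukemic minus Nras G12D from -1.01 to 0.512 (median -0.00955, against 0.0570). About as many tiles were higher as lower, 5 against 6 in each of these comparisons. Tet2 knockout minus Nras G12D ranged from -0.312 to 0.718 points, nonleukemic minus Tet2 knockout from -0.635 to 0.938 and nonleukemic minus Nras G12D from -0.343 to 0.814. For 10 of the 11 tiles no 95% interval in any comparison reached above 3.64 points. The exception was the Cdh1 tile at chr8:109128000-109128999, with bounds up to 9.84 points. Libraries of the groups did not overlap in 3 of 66 comparisons of a tile between groups. The leukemic libraries were below the nonleukemic and the Tet2 knockout ones in the upstream Cdkn2a tile, beside 13.8% and 11.1% of all dense low tiles without overlap. The nonleukemic libraries were above the Tet2 knockout ones in the downstream Socs1 tile, beside 10.6%. In the other 3 comparisons 0 of 11 tiles lacked overlap, beside 9.05% of all dense low tiles in Tet2 knockout minus Nras G12D, 11.5% in nonleukemic minus Nras G12D and 11.1% in leukemic minus Nras G12D.

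**Figure D2:**
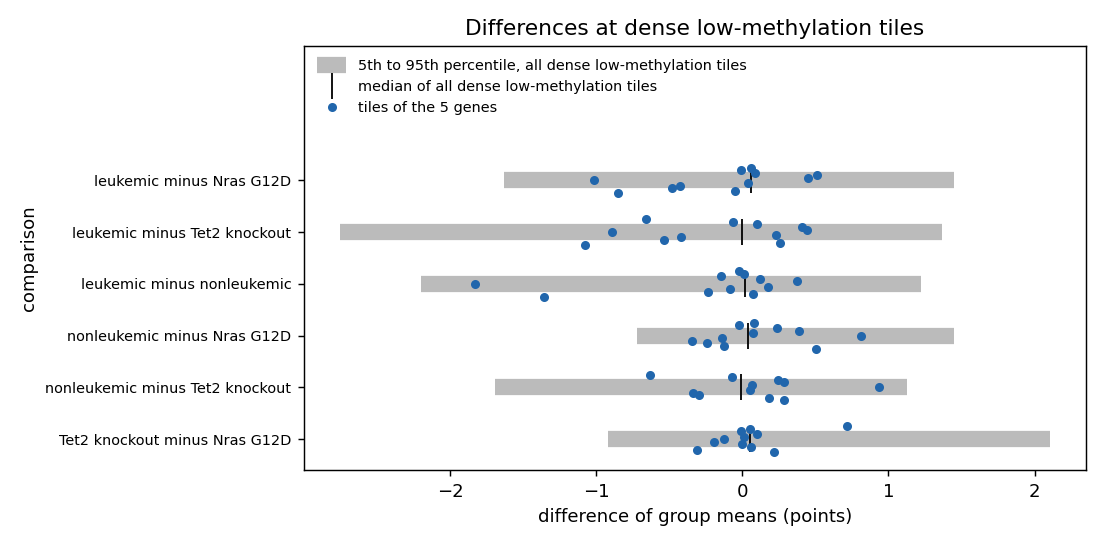
Difference of group means in percentage points (horizontal axis) for the 6 comparisons (vertical axis), with 1 point for each of the 11 dense low-methylation tiles of the 5 genes, a grey bar from the 5th to the 95th percentile of all 18672 dense low tiles and a line at their median. All points lie between -1.83 and 0.938 and inside the grey bars.

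A tile can hide a change at a single CpG, so each CpG was tested in the same way, with a call from an adjusted p below 0.05 and 25 points or more. In all 6 comparisons 0 of the 602 CpGs were called. Of all CpGs tested, 0.000347% were called in Tet2 knockout minus Nras G12D, 0% in nonleukemic minus Tet2 knockout, 0.000347% in nonleukemic minus Nras G12D, 0.00894% in leukemic minus nonleukemic, 0.0344% in leukemic minus Tet2 knockout and 0% in leukemic minus Nras G12D. Of the 522 CpGs in dense low tiles, 29 to 51 per comparison had an unadjusted p under 0.05. As a share this was 5.56% in Tet2 knockout minus Nras G12D, beside 4.55% of all 613095 CpGs of dense low tiles, 6.7% in nonleukemic minus Tet2 knockout (4.87% of all) and 7.47% in nonleukemic minus Nras G12D (5.03%). With the libraries labelled leukemic it was 9.77% against nonleukemic (7.59% of all), 7.28% against Tet2 knockout (6.51%) and 9% against Nras G12D (6.63%). The shares were thus slightly above those of all such CpGs, a difference that was not tested, and neighbouring CpGs share reads. There was no methylated read in any library at 159 of the 522, among them 62 of 143 in Socs1, 53 of 149 in Cdkn2a, 24 of 128 in Id4, 11 of 38 in Cdkn2b and 9 of 64 in Cdh1. A mean under 1% was found at 387. Means over 10% were found at 9, of which 5 were in Cdh1, 3 in Cdkn2a and 1 in Cdkn2b.

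In 25 of the 522 CpGs at least 1 group had a mean over 10%. These were 14 CpGs for the leukemic, 13 for the Tet2 knockout, 10 for the nonleukemic and 8 for the Nras G12D libraries. The matching shares over all CpGs of dense low tiles are not given here, so these counts do not set the 5 genes or a group apart. In 16 of the 25 only 1 group was over 10%, and in none of these were all 3 libraries of that group over 10%. The CpG with the highest group mean, in the upstream Cdkn2a tile at 88941238, was at 50.0% in Tet2 knockout, from 100% of 28 reads in replicate 2 and 0% of 31 reads in replicate 1. The 3 CpGs listed just before it, at 88941221, 88941223 and 88941226, were at 0%, 0% and 3.85% in that library. In the leukemic group, the Cdkn2a promoter CpG at 88940705, 182 bases before the start, was at 34.5% in replicate 3 and 0% in the other 2. The Cdh1 CpG at 109128102 was at 72.4% in the same library and at 2.61% and 11.1% in the others. In that library the Cdh1 CpGs at 109128126 and 109128043 were raised too, at 41.6% and 23.6%. Of the 25 CpGs, 11 had at most 1 library over 10% in each group whose mean was over 10%. The other 14 were raised in more than 1 library of a group, and 5, of which 1 was the downstream Cdkn2a CpG at 88920743 and 4 lay in the Cdh1 tile chr8:109128000-109128999, had means over 10% in all 4 groups. Close to the Arf start, the Cdkn2a CpG at 88940252, 271 bases after it, was at 11.9%, 14.5% and 17.7% in Nras G12D libraries. It was at 33.3%, 8.12% and 3.63% in leukemic and at 1.37%, 19.5% and 15.1% in nonleukemic libraries. The CpG at 88940086 was at 36.5%, 7.25% and 4.48% in leukemic and at 4.65%, 25.6% and 9.62% in nonleukemic libraries. At 88940098 only the leukemic mean was over 10%, from 17.7%, 17.4% and 2.56%.

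**Figure D3:**
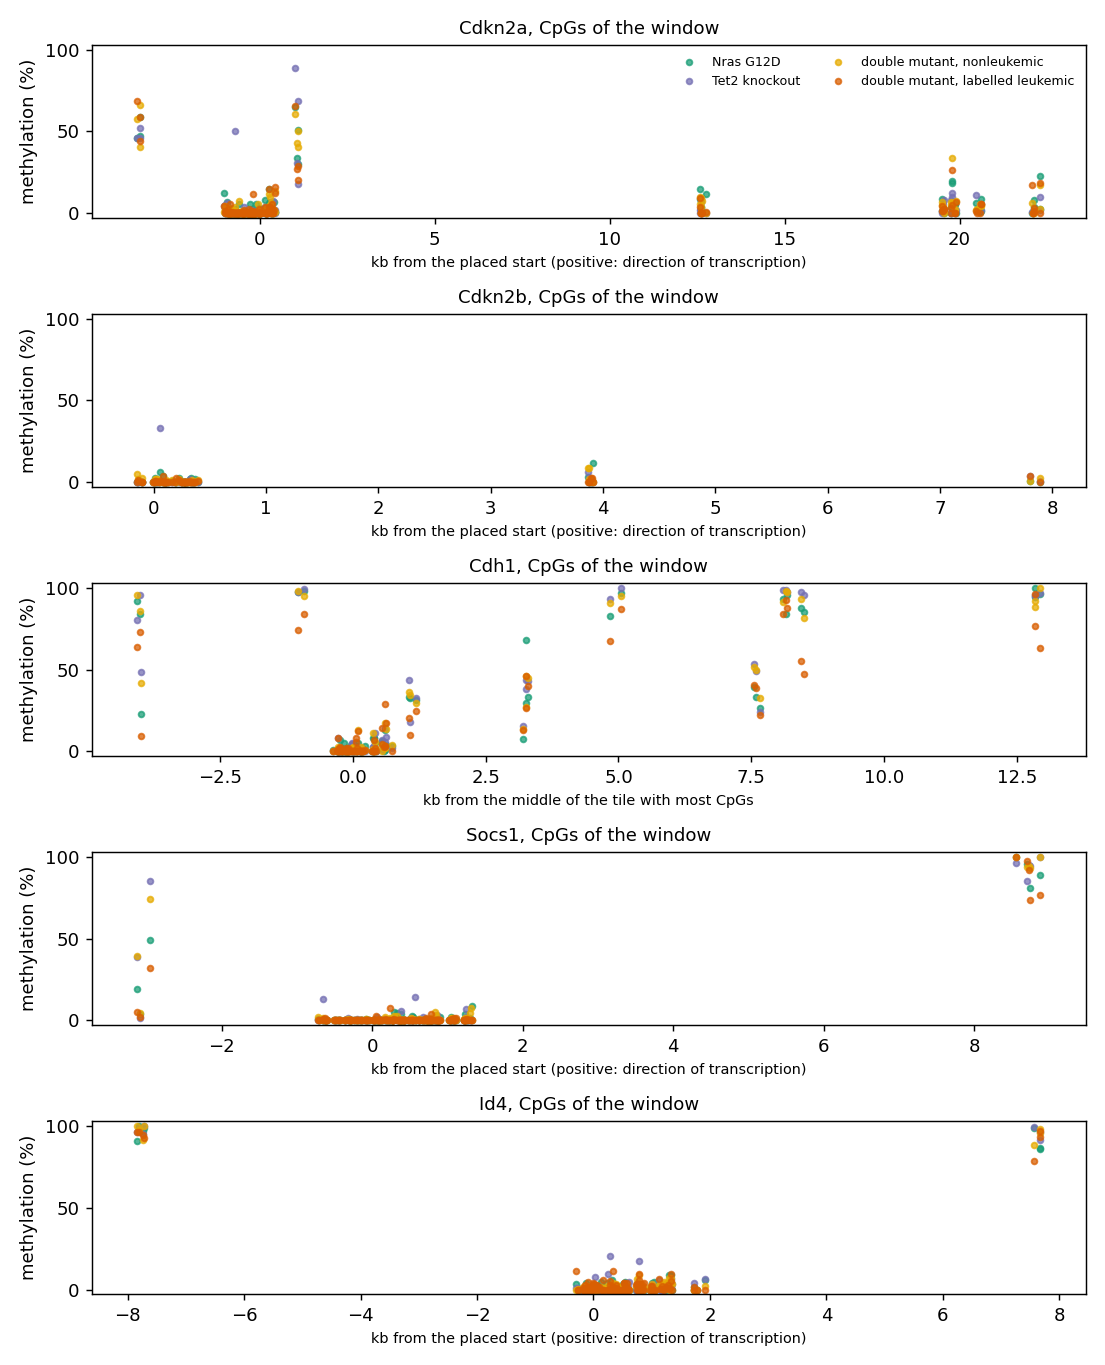
Group mean methylation (vertical axis, percent) of each measured CpG of the 5 genes against its distance (horizontal axis, kb) from the placed start, or for Cdh1 from the middle of the tile with most CpGs, with 1 point per CpG and group. Most points of the dense stretches lie near 0 in all 4 groups, with higher ones such as the Tet2 knockout value of 50.0% in Cdkn2a and 33.1% in Cdkn2b, and the flanking CpGs of Cdh1, Socs1 and Id4 are far higher.

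The other 15 tiles of the windows were sparse or methylated. The 6 under 20% had 3 to 8 CpGs and means from 0.657% to 4.08%, and none was called in any comparison. One of them, chr4:88953000-88953999 with 6 CpGs, had the largest difference between groups near Cdkn2b. Its averages were 3.06% ± 4.0 in Nras G12D, 3.42% ± 3.39 in nonleukemic and 0.943% ± 1.63 in leukemic libraries (SD, n = 3 each), and 1.51% in Tet2 knockout (n = 2, at 3.02% and 0%). Tet2 knockout replicate 3 had no reads there and was left out of the fit. The leukemic minus nonleukemic difference of -2.47 points had an interval from -8.35 to 3.41, and was -0.537 points without nonleukemic replicate 2.

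The 9 tiles of at least 20% hold 35 CpGs around the dense regions, and here the libraries labelled leukemic were mostly lower. They were lower than the nonleukemic ones in 9 of 9 tiles (median -11.4 points), than Tet2 knockout in 8 of 9 (median -11.1) and than Nras G12D in 7 of 9 (median -5.85). Over all 77433 tiles of at least 20%, 80.8% were lower in leukemic than in nonleukemic libraries (median -4.62), 82.5% than in Tet2 knockout (median -5.31) and 76.8% than in Nras G12D (median -3.97). These flanks thus mostly differed in the same direction as most methylated tiles, and the 3 comparisons share the leukemic libraries. Cdkn2b had no tile of at least 20%, and Cdh1 had the most. Of the 26 tiles, 2 were called, both in Cdh1 and both lower in the leukemic than in the Tet2 knockout libraries, where 7.2% of all tiles and 9.52% of tiles of at least 20% were called lower. In the other comparisons 0 of 26 were called, beside 0% of all tiles in Tet2 knockout minus Nras G12D and in nonleukemic minus Tet2 knockout, 0.00284% in nonleukemic minus Nras G12D, 3.83% in leukemic minus nonleukemic and 1.99% in leukemic minus Nras G12D. In leukemic minus Tet2 knockout 7.33% of all tiles were called in either direction. Before adjustment 5 of the 26 had a p under 0.05 in leukemic minus Tet2 knockout (27.6% of all tiles), 4 in leukemic minus nonleukemic (22.4%) and 1 in leukemic minus Nras G12D (19.6%). There was 1 in Tet2 knockout minus Nras G12D (5.85% of all tiles), 1 in nonleukemic minus Nras G12D (2.84%) and 0 in nonleukemic minus Tet2 knockout (3.24%), and limma on log ratios called 0 in each of the 6.

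The first, chr8:109123000-109123999 with 3 CpGs, was at 71.1%, 78.4% and 89.0% in Tet2 knockout and at 47.8%, 56.1% and 39.7% in leukemic libraries. Nonleukemic libraries read 63.7%, 74.9% and 81.3%, those of Nras G12D read 57.3%, 80.1% and 68.4%, and every leukemic library was below all others. Leukemic minus Tet2 knockout was -31.6 points (adjusted p = 0.0194, quasi-binomial model with limma's moderated spread), with a 95% interval from -49.4 to -13.8. Leukemic minus nonleukemic, -25.4 points, had an adjusted p of 0.0577, and 0.0461 without leukemic replicate 2. The Tet2 knockout call was lost without Tet2 knockout replicate 2 (adjusted p = 0.0657) or 3 (0.0567) and without leukemic replicate 3 (0.0593). It was also lost with limma on log ratios (adjusted p = 0.116) and in a fit on the 2 groups alone (0.128). With tiles of 500 bp no tile was called in its place.

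The second Cdh1 tile, chr8:109135000-109135999 with 7 CpGs, was at 78.1%, 83.0% and 72.8% in Tet2 knockout, 72.6%, 77.9% and 76.3% in nonleukemic, 66.8%, 65.0% and 68.1% in leukemic and 59.4%, 69.1% and 61.9% in Nras G12D libraries. The leukemic and Nras G12D libraries were low and the other 2 groups high, without overlap between these pairs. Leukemic minus Tet2 knockout was -11.3 points (adjusted p = 0.0390 in the same model), and Tet2 knockout minus Nras G12D, the larger difference, was 14.5 points without passing (adjusted p = 0.706). The call was lost without Nras G12D replicate 1, Tet2 knockout replicate 1 or 2, leukemic replicate 1 or 2, or any 1 of the nonleukemic libraries, with adjusted p of 0.0507, 0.0798, 0.174, 0.0605, 0.0660, 0.0533, 0.0553 and 0.0597 in that order. Further losses came with strands apart (adjusted p = 0.0508), in a fit on the 2 groups alone (0.174) and with limma on log ratios (0.383). Tet2 knockout replicates 1 and 2 are also 2 of the 3 libraries with Y chromosome reads. Leaving out those 3 leaves Tet2 knockout with 1 library, assumed to vary like the other groups, and is no check of the calls. The differences from that library were -41.1 points in the first Cdh1 tile and -6.15 in the second.

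The largest differences near Socs1, Cdkn2a and Id4 were in methylated flanks and were not called. In Socs1, chr16:10788000-10788999 with 3 CpGs was at 45.0%, 66.7% and 59.5% in Tet2 knockout and 40.9%, 11.7% and 22.4% in leukemic libraries, all leukemic values being lower. The difference was -32.1 points (adjusted p = 0.130), and -40.0 points with an adjusted p of 0.0426 in the same model without leukemic replicate 1. In Cdkn2a, chr4:88939000-88939999 with 4 CpGs was at 47.7% ± 11.1 in nonleukemic and 36.3% ± 12.5 in leukemic libraries, and the groups overlapped. In Id4, chr13:48364000-48364999 with 3 CpGs was at 95.5% ± 4.59 in Tet2 knockout and 90.1% ± 4.09 in Nras G12D (SD, n = 3 each). No gene annotation of mm9 was used here, so the tiles are given by position and were not assigned to exons or introns.

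**Figure D4:**
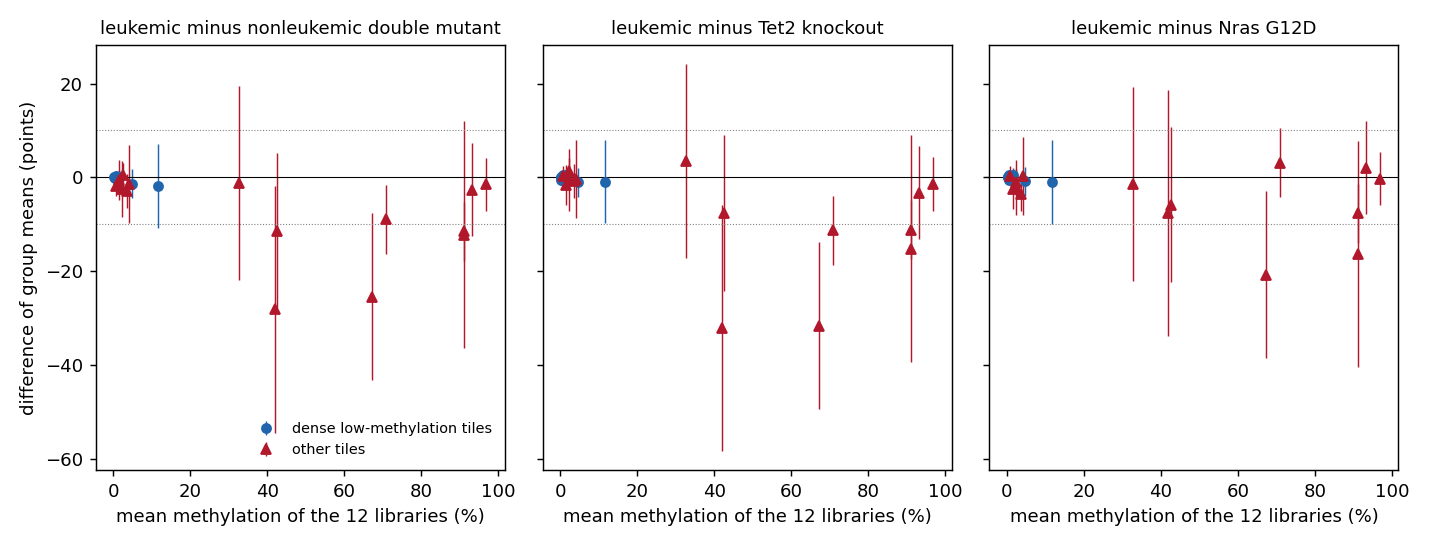
Difference between the libraries labelled leukemic and each other group (vertical axis, percentage points) against the mean of the 12 libraries (horizontal axis, percent) for the 26 tiles of the windows, with lines for 95% intervals and dotted lines at the 10 points a call needs. The 11 dense low tiles (circles) lie within 1.83 points of 0, and most of the other tiles (triangles) of at least 20% lie below 0.

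Other tumour suppressor promoters were set beside the 5 genes, from a list of 50 genes such as other cyclin-dependent kinase inhibitors, Wnt inhibitors and Socs and Id family members. Of these, 33 had a promoter sequence in the table, with 45 sequences, and 22 sequences of 20 genes were placed on mm9 on the right chromosome and strand. Means over the 12 libraries were under 5% at 20 of the 22, with a median of 0.303% over all 22. The exceptions, named after their values were seen, were 1 of the starts of Trp73, a p53 relative, at 81.3%, and Tfap2a, a transcription factor, at 30.8%. No tile at these promoters was called higher or lower in any of the 6 comparisons (0 of 22), beside 0% to 7.33% of all tiles. Of all dense low tiles 0% to 0.0428% were called higher. At means under 5% there was little room for a fall of 10 points, so the lack of lower calls says little. An unadjusted p under 0.05 was found at 1 to 4 of the 22 per comparison. With the libraries labelled leukemic it was 4 against nonleukemic (11.4% of all dense low tiles), 3 against Tet2 knockout (15.7%) and 4 against Nras G12D (11.7%). It was 2 in Tet2 knockout minus Nras G12D (6.47%), 2 in nonleukemic minus Tet2 knockout (4.29%) and 1 in nonleukemic minus Nras G12D (2.67%). The smallest adjusted p in the quasi-binomial model was 0.0338, in leukemic against Tet2 knockout libraries, where the difference was under 10 points. The low level of the 5 genes was thus shared by most of the promoters of this list that could be placed. Placement needed at least 6 matched CpGs, so it favoured CpG-rich promoters, which are normally unmethylated, and starts with few CpGs are missing.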

How the data were processed

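Reduced representation bisulfite libraries of sorted LSK cells were made by cutting DNA with MspI, selecting fragments of 150 to 400 bp and reading 50 bp from 1 end, per the labels' protocols. The aligner Bismark (no version given) and the build mm9 (NCBIM37) are those of the submitters' processing notes. The tables deposited by the authors list the cytosines of CpGs on each strand with their coverage, a count of at least 10 reads, and the percent of those reads with C and with T. Methylated and unmethylated counts were their product, rounded to whole reads, and strands were summed. CpGs above a library's 99.9th coverage percentile were left out, which left 1152613 autosomal CpGs. Tiles needed at least 3 CpGs. Groups were compared in 6 contrasts over all 12 libraries with a quasi-binomial model, its dispersion moderated with limma's squeezeVar and floored at 1, an F test and Benjamini-Hochberg adjustment over all tiles or CpGs, and the test was tested on simulated data. Promoter sequences were laid on the listed CpGs of all autosomes by CpG spacing, with at least 6 CpGs matched, at most 1 listed CpG off and no other offset as good. For Cdkn2a 37 CpGs matched (8 at the next best offset), for Cdkn2b 11 (6), for Socs1 17 (5) and for Id4 35 (8), with 0 off. CpGs of the shared window went to Cdkn2a or Cdkn2b at the midpoint between their starts, 88948732. Named were the 5 genes, by rule with each dense low tile, the tile of each gene with the largest difference between 2 group means, and every called tile or CpG, and of the other list only called promoters. The members and lists were chosen with earlier results of these data known. Alternatives were a coverage minimum of 20, CpGs covered in all 12 libraries, no high-coverage filter, strands apart, tiles of 500 bp, other thresholds, means of CpG percents, limma on log2 ratios with a pseudocount of 1, fits on fewer groups, a replicate block, no listed CpG off in the placement, and each replicate left out. Placement on the chromosome and strand of the table, and a search for the other Cdkn2a start in its window alone, were added after seeing the data. The work was done in R 4.3.3 with limma 3.58.1 and in Python 3.11.15 with pandas 2.3.3, NumPy 2.4.6, matplotlib 3.10.9 and SciPy 1.17.1.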

Additional observations from a re-analysis of the deposited data

How the results depend on the processing

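Under every alternative, 0 dense low-methylation tiles of the 5 genes were called higher in any comparison. The number of window tiles called in leukemic minus Tet2 knockout, 2, was 1 with strands apart and with tiles of 500 bp, and 0 with limma and with a fit on the 2 groups compared. It was also 0 when the 3 libraries that hold Y chromosome reads were left out, which is no check of the calls, since Tet2 knockout then has 1 library that is assumed to vary like the other groups. It ran from 0 to 2 with 1 library left out, and in leukemic minus nonleukemic from 0 to 1. As a mean of CpG percents, the Cdh1 level of the nonleukemic libraries was 3.23% and the Socs1 level of Nras G12D 0.325%. The Cdkn2a level of Tet2 knockout was 0.908% when those 3 libraries were left out, the value of replicate 3 alone, and 0.898% to 1.30% with 1 library left out. Differences of under 2 points that changed sign were leukemic minus Tet2 knockout at chr8:109127000-109127999 (-0.0377 points when those 3 were left out), nonleukemic minus Tet2 knockout in the Socs1 start tile (0.107 without Tet2 knockout replicate 2, and -0.214 to 0.107 with 1 library left out), leukemic minus nonleukemic at chr8:109128000-109128999 (0.963 without leukemic replicate 1, and -4.26 to 0.963) and leukemic minus Nras G12D in the Id4 start tile (-0.0519 without leukemic replicate 2, and -0.0519 to 0.688). The cause was not tested. Of the recomputed values, 763 of counts and levels and 375 of single tiles kept their direction and call or moved by less than the spread of replicates. Among counts and levels 20 moved further. Among single tiles 18 lost a call, 4 changed sign and 1 gained a call. Many of the unchanged counts were 0 in both settings and could show little. With no listed CpG allowed off, the placed promoters of the members were the same.

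Replicate numbers did not pair the libraries: the deviations of same-numbered libraries correlated at -0.00996 to 0.0235 in 18 pairs, none over 0.1, and 6 of 12 libraries were closest to one of their own number. With a replicate block the 2 Cdh1 tiles were called again, and the number of CpGs called in leukemic minus Tet2 knockout went from 0 to 1. That CpG, at chr8 position 109136001, differed by -48.1 points (adjusted p = 0.0356, quasi-binomial model with the block).

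Depth limits these readings as follows. A call needs 10 points, so a smaller gain is bounded only by its interval. Sparse flanking tiles rest on 3 to 8 CpGs, and CpGs outside the sequenced ends of MspI fragments were not read.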
